A study of Mus musculus with 9 samples.

Results

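The genes described here encode the proteins of the cytosolic ribosome. A gene was a member when its symbol was Rpl or Rps followed by a number, with or without an a, x or l and a further number, or Rplp followed by 1 digit, or Rpsa, and when it was not a pseudogene named with -ps. This rule uses names alone and no measured value. It matched 89 of the 56289 genes in the deposited gene table. They were 46 core genes of the large subunit, 31 core genes of the small subunit and 12 paralogs or copies, such as Rpl22l1, Rps27l and Rps3a2. Fau and Rack1, which also encode proteins of the ribosome, do not carry such a symbol and were counted with the translation factors. RNA was sequenced from 9 cultures of mouse cells labelled RAW264.7, a macrophage-like line of BALB/c origin, as poly(A) libraries. There were 3 untreated libraries (Con), 3 from cells given TNF-α at 20 ng/ml for 24 h (TNF-α) and 3 from cells given TNF-α and WBT at 1 μg/ml for 24 h (TNF-α+WBT). The TNF-α was recombinant human protein, according to the study. WBT is Wang Bi Tablet, a Chinese herbal preparation, and the sample labels spell it WBP. TNF-α is a cytokine of the inflammatory response, and the comparisons ask what it changes in these cells and what WBT changes in its presence.

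The cytosolic ribosome consists of a large subunit, which forms the peptide bonds, and a small subunit, which reads the mRNA. Its proteins are needed in equal numbers, one of each per subunit apart from the stalk, and the mRNAs of these genes are among the most abundant of growing cells. Most of these mRNAs begin with a cytidine followed by a run of pyrimidines, the 5′ terminal oligopyrimidine (TOP) tract, through which mTOR and LARP1 control their translation. That control acts on translation and is not read by mRNA levels. The genes are also known for their very many processed pseudogenes, intronless copies of the spliced mRNA, with which sequenced fragments can be confused.

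RefSeq promoters (GRCm38.p6) were at hand for 57 of the 77 core genes. A start at a C followed by at least 4 further C or T, read on the strand of the gene, was annotated for 13 of these 57 genes (22.8%), against 3.01% of 27025 genes with a promoter. The starts below are printed with 30 bases before the annotated start and the first 10 bases of the RNA, 5′ to 3′ on the strand of the gene, and capitals mark the start base and the pyrimidines that follow it without a break. They show the tract of Rps6, the substrate of S6 kinase, of Rplp2, a stalk protein, of Rpl35 and Rps10, and of Rpl15, whose transcripts differed between groups. Rplp0, the base of the stalk, has an annotated start at a G and is shown as a contrast in annotation only. The count depends on the exact annotated base. Rpl7a and Rpl27a, with an annotated start at a T inside a longer run of pyrimidines, were not counted. Whether the mRNAs of genes without a counted start, Rplp0 among them, begin with a tract was not tested.
Rps6, chr4:86857358-86857397, minus strand: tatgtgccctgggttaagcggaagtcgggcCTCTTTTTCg
Rplp2, chr7:141447621-141447660, plus strand: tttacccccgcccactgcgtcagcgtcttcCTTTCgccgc
Rpl35, chr2:39005122-39005161, minus strand: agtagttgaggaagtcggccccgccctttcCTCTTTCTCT
Rps10, chr17:27635235-27635274, minus strand: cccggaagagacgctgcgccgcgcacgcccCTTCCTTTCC
Rpl15, chr14:18270977-18271016, minus strand: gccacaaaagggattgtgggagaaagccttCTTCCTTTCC
Rplp0, chr5:115559437-115559476, plus strand: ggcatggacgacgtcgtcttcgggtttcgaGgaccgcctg
The letters CCGGAAG, the core of sites for ETS factors such as GABP, were found on either strand in the 300-base promoters (250 bases before the start and 50 after it) of 24 of the 57 core genes (42.1%) and of 9.93% of all genes. TATAAA was found in 6 of the 57 (10.5%) and in 15.7% of all genes. Matches of these 2 motifs cannot overlap each other. A match describes the letters of the window and not a bound site.

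The values are FPKM, fragment counts scaled to transcript length and to the depth of the library, per gene and per annotated transcript, so levels of genes can be set beside each other per length. Depth is not given, and the spacing of low values put it at about 16990000 to 26155000 fragments per library, an estimate for which only 47.3 to 52.5% of the low values were within 0.1 of a whole fragment. The macrophage label was not borne out by its markers, since 6 of 12 macrophage genes, Ptprc, Spi1, Itgam, Adgre1, Tyrobp and Cybb, were listed at 0 in all 9 libraries. Only Cd14 of that list lay above 1 FPKM in every library, and the 12 genes summed to 5.87 to 8.18 FPKM. In contrast, 8 of 10 fibroblast genes and 6 of 8 Schwann cell genes lay above 1 FPKM in every library, and the cells are therefore called by their label only. The summed fibroblast genes were at 3486 to 3733 FPKM in Con, 3869 to 3946 in TNF-α and 3772 to 3867 in TNF-α+WBT. The summed Schwann cell genes were at 743 to 796, 623 to 677 and 674 to 705 FPKM in the same order. The 5 neuron genes listed summed to 53.4 to 57.9, 15.6 to 16.7 and 19.3 to 22.3 FPKM. Of these 5, only Tubb3 lay above 1 FPKM in every library, and Rbfox3 and Stmn2 were at 0 in all 9. The part of these differences in the results below was not tested. In bulk RNA, fewer cells of a type and less RNA per cell cannot be told apart.

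Ribosomal protein mRNAs were abundant and took a nearly constant part of the RNA in all 9 libraries. Their summed FPKM was 15.25%, 14.96% and 14.81% of the total in Con, 14.54%, 14.87% and 14.81% in TNF-α, and 15.05%, 15.13% and 14.89% in TNF-α+WBT. Con overlapped with both treated groups, while all 3 TNF-α+WBT libraries lay above all 3 TNF-α libraries, with means of 15.01 ± 0.226% in Con, 14.74 ± 0.173% in TNF-α and 15.02 ± 0.124% in TNF-α+WBT (SD, n = 3 each). The ratio of large to small subunit FPKM was 1.43 ± 0.00078 in Con, 1.44 ± 0.0101 in TNF-α and 1.45 ± 0.0134 in TNF-α+WBT (SD, n = 3 each). All 3 libraries of each treated group lay above the 3 Con libraries in this ratio, the lowest at 1.434 against a highest Con value of 1.427.

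The core genes ranged from 42.8 to 2654 FPKM by their means over the 9 libraries, with a median of 722 FPKM. Of the 77 core genes, 75 lay above 100 FPKM and 21 above 1000 FPKM, and 48 of the 89 members were among the 100 highest genes of the series. The highest member was Rplp1, an acidic stalk protein, at 2654 ± 52.6 FPKM (SD, n = 9 libraries), followed by Rplp0 at 2413 ± 79.6 FPKM and by Rps26, a protein of the mRNA exit channel, at 2308 ± 178 FPKM. Rps15 at 1663 ± 44.3 FPKM and Rps12 at 1560 ± 75.5 FPKM came next. Rplp1 and Rplp0 are neighbours in this order and differed beyond their spread, since the lowest Rplp1 library (2582 FPKM) lay above the highest Rplp0 library (2517 FPKM), whereas Rplp0 (2247 to 2517 FPKM) and Rps26 (2029 to 2636 FPKM) overlapped. Rplp2, the partner of Rplp1 in the stalk, was far lower at 466 ± 10.5 FPKM. That gap is per length, since the weighted transcript length was 947 bases for Rplp2 and 499 for Rplp1. Estimated fragments per library were 7539 to 11293 for Rplp2 and 22847 to 35771 for Rplp1.

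The lowest core genes were Rpl26 at 42.8 ± 8.72 FPKM, Rps15a at 98.8 ± 3.60 FPKM and Rpl22 at 142 ± 3.84 FPKM (SD, n = 9 libraries). For Rps15a, the transcript lengths weighted by their FPKM averaged 4265 bases, against a median of 800 bases over the core genes, since its leading annotated transcript, Rps15a-204, is 5179 bases long. The level of Rps15a is per length, and its fragments, an estimated 7062 or more per library, were not few. The level of Rpl26 is taken up with its copies below.

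**Figure D1:**
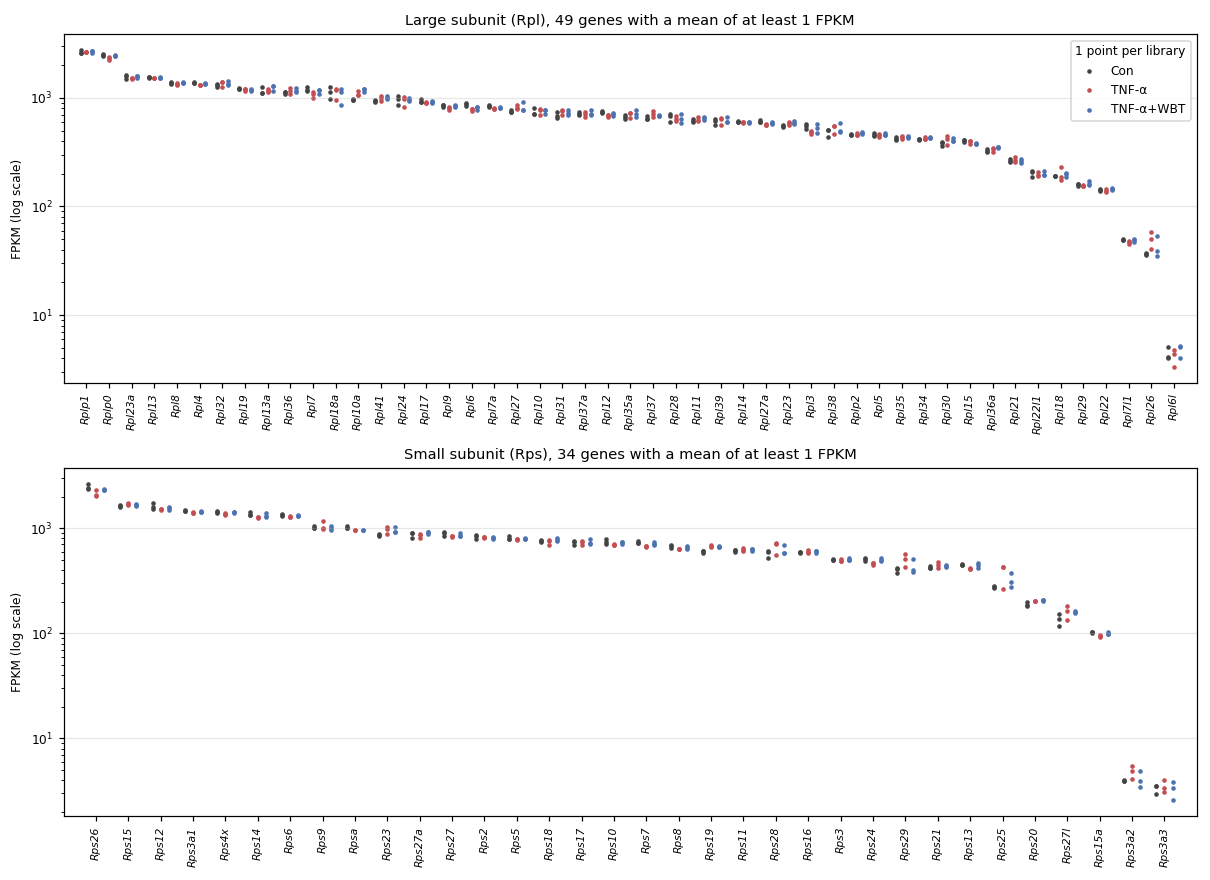
FPKM on a log axis of the 83 members with a mean of at least 1 FPKM, ordered by mean within the large (top) and the small subunit (bottom), with 1 point per library coloured by group. Rplp1 and Rps26 lead their subunits, the core genes lie between 42.8 and 2654 FPKM, and the 9 points of most genes nearly coincide.

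The paralogs divided into expressed and silent ones. Rpl22l1, the paralog of Rpl22, was at 200 ± 9.69 FPKM (SD, n = 9 libraries) and above Rpl22 itself, at 186 to 213 FPKM against 137 to 147 FPKM, with no overlap. Rps27l, a p53 target beside Rps27, was at 152 ± 19.4 FPKM, below Rps27 at 862 ± 33.5 FPKM in every library. Rpl7l1 was at 48.3 ± 1.77 FPKM and its partner Rpl7, a protein of the large subunit, at 1137 ± 79.2 FPKM. Rpl10l and Rpl39l, known from the male germ line, were listed at 0 in all 9 libraries, while Rpl10 was at 750 ± 39.6 FPKM and Rpl39 at 617 ± 37.1 FPKM. Rpl3l, known from striated muscle, was at most 0.169 FPKM, and Rps4l at most 0.0723 FPKM, while Rpl3 was at 516 ± 40.3 FPKM and Rps4x, its X-linked partner, at 1405 ± 36.5 FPKM. The retrocopies Rpl32l and Rps12l1 did not pass 0.403 FPKM in any library, and Rps3a2, Rps3a3 and Rpl6l averaged 4.28, 3.37 and 4.47 FPKM. Muscle and germ cell genes were low as well, with 5 genes of each summing to at most 1.03 and 0.802 FPKM.

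Pseudogene copies held a sizeable part of the FPKM of some members, which bears on every level above. Transcripts of pseudogenes and of genes with Gm names were aligned to the leading coding transcript of each core gene, and 1158 were copies at 90% identity or more over at least 50% of the shorter sequence. They belonged to 76 of the 77 core genes, 190 of them had a mean above 1 FPKM, and together they held 2.10% of all FPKM. For 53 core genes, over 95% of the FPKM of gene and copies lay on the gene itself, for 16 it was 50 to 95%, and for 8 it was under 50%. The 8 were Rpl26, Rpl29, Rpl30, Rpl34, Rpl21, Rps2, Rps18 and Rpl3, which were singled out after their values were seen.

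Rpl26, a protein beside the exit tunnel that also binds the p53 mRNA, was the extreme case. The gene (chr11:68901583-68906989, plus strand, GRCm38) held only 2.87% of the FPKM it shared with its copies, and 1452 FPKM lay on Gm15772, a processed pseudogene of 1 exon at chr5:3236431-3236868, plus strand. Gm15772 is as long as the coding sequence of Rpl26, and 2 of its 438 bases differ. The differences, counted from the A of the start codon of Rpl26, are C177T and T288C, each at the third base of a codon, Rpl26 first. The windows below show them in capitals, with the 15 bases before and the 14 after, because only fragments that cover one of these bases, or sequence outside the coding part, differ between the genes. The first Rpl26 window crosses an exon junction.
Rpl26, C177T, chr11:68902436-68903201, spliced: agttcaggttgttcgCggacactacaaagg
Gm15772, C177T, chr5:3236592-3236621: agttcaggttgttcgTggacactacaaagg
Rpl26, T288C, chr11:68903283-68903312: tggcacaaccgtccaTgtgggcatccaccc
Gm15772, T288C, chr5:3236703-3236732: tggcacaaccgtccaCgtgggcatccaccc
Rpl26 and copies summed to 1499 FPKM, against 42.8 FPKM for the gene alone. Gm15772 was at 1597, 1444 and 1490 FPKM in Con, 1421, 1418 and 1350 in TNF-α and 1436, 1490 and 1417 in TNF-α+WBT. Rpl26 itself was at 37.3, 36.4 and 35.4 FPKM in Con, 40.3, 50.1 and 58.4 in TNF-α and 53.2, 35.1 and 39.2 in TNF-α+WBT, so that against Con the TNF-α libraries were high for the gene and low for the copy. How the fragments were divided between them was not tested.

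Rpl29 held 15.8% of its sum, with Gm13841 and Gm8210 at 377 and 357 FPKM. Rpl30, Rpl34 and Rpl3 each had 1 dominant copy, Gm12191 at 594, Rpl34-ps1 at 603 and Rpl3-ps1 at 536 FPKM, and Rps2 had Rps2-ps13 at 733 FPKM. For Rps18, a protein of the small subunit head, the copy Gm10260 lies on the minus strand at chr13:97760072-97760632 inside Gm26619, a noncoding gene on the plus strand. Gm10260 was at 712 to 792 FPKM in 7 libraries, at 483 in Con 1 and at 0 in TNF-α+WBT 3, and Gm26619 was at 173 FPKM in Con 1, 389 in TNF-α+WBT 3 and at most 0.0229 in the others. Rps18 itself stayed between 697 and 800 FPKM in all 9 libraries. Whether fragments were assigned by strand is not given in the sources used here, so reads from these opposite genes cannot be told apart. With the copies added, all 77 core genes lay above 100 FPKM, and the ratio of the highest to the lowest core gene fell from 62.0 to 26.1.

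**Figure D2:**
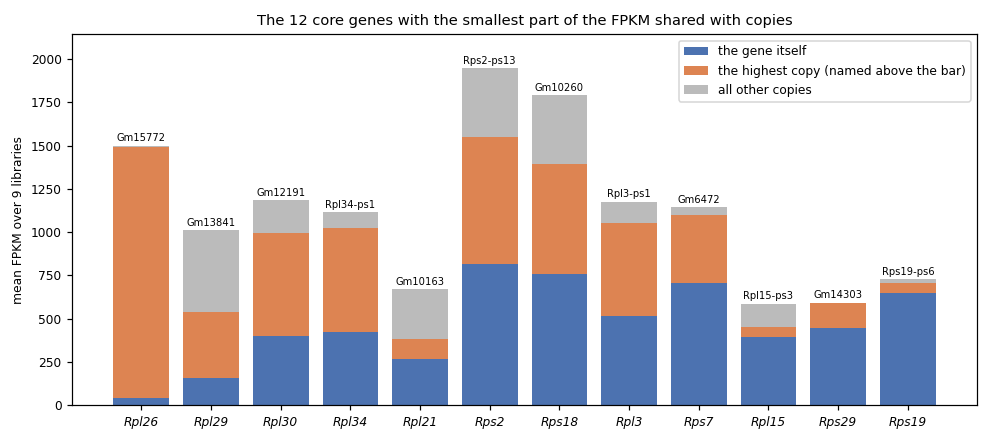
Mean FPKM over the 9 libraries of the 12 core genes with the smallest part of the FPKM that gene and copies share, stacked as the gene itself, its highest copy (named above the bar) and all other copies. Rpl26 holds 2.87% of its bar and Rpl29 15.8%, while most of the Rps7 and Rps19 bars lies on the gene.

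Libraries of the same group agreed closely in the levels of these genes. The SD within groups of log2(FPKM + 0.1) had a median of 0.049 over the 83 members with a mean of at least 1 FPKM, or 3.48%. It was 0.081 over 6578 other genes averaging 10 FPKM or more and 0.051 over 117 others averaging 300 FPKM or more. The coefficient of variation over all 9 libraries had a median of 4.29% among the core genes and was under 5% for 52 of the 77. Counting error alone was estimated at 0.99% for the median core gene in its shallowest library and at 5.24% for Rpl26, and covers counting only.

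The most variable members with a mean of at least 1 FPKM were Rps25, Rpl26 and Rps29, with coefficients of variation of 21.0%, 20.4% and 15.4%. Rps25, which is known for its part in internal initiation, was at 274, 279 and 271 FPKM in Con, 266, 426 and 427 in TNF-α, and 306, 373 and 279 in TNF-α+WBT. Rps29, a short zinc-binding protein of the head, was at 420, 405 and 372 FPKM in Con, 427, 509 and 567 in TNF-α and 512, 384 and 398 in TNF-α+WBT. Both genes were high in TNF-α 2 and TNF-α 3, Rps25 also in TNF-α+WBT 2 and Rps29 in TNF-α+WBT 1, and TNF-α 1 lay with Con or just above it. Without TNF-α 1, Rps25 passed the test for TNF-α against Con, at a log2 fold change of 0.64 and an adjusted p of 0.0203 (limma), against 0.41 and 0.313 with it. The most constant members were Rpl14 at 1.17%, Rpl13 at 1.34% and Rpl8 at 1.40%, which were looked up after the values were seen.

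Part of this variation followed transcript length and was shared with other genes. Deviations from the gene mean on the log2 scale were summarised by library in 3 classes of length, chosen after the data were seen. Among the 21 members with transcripts up to 600 bases, the median deviation was −0.074 in Con 3, −0.053 in TNF-α 1 and −0.035 in Con 2, and 0.032 in TNF-α 2, 0.045 in TNF-α 3 and 0.079 in TNF-α+WBT 1. Among 200 other genes of that length, it was −0.045, −0.039 and −0.043 in the first 3 of these libraries and 0.050, 0.064 and 0.038 in the last 3. In TNF-α+WBT 2 the members were at 0.013 and the other genes at −0.017. Over 5571 other genes longer than 1200 bases it stayed between −0.0091 and 0.0122. The 13 members of that length shifted more, at 0.035, 0.023 and 0.018 in Con and −0.045, −0.032 and −0.017 in TNF-α. In TNF-α+WBT they were at 0.036, 0.016 and −0.0024. Short mRNAs were therefore low or high together within groups in most libraries, but variation of the members was not confined to them. This spread enters each comparison of a short member such as Rps29 or Rpl26.

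**Figure D3:**
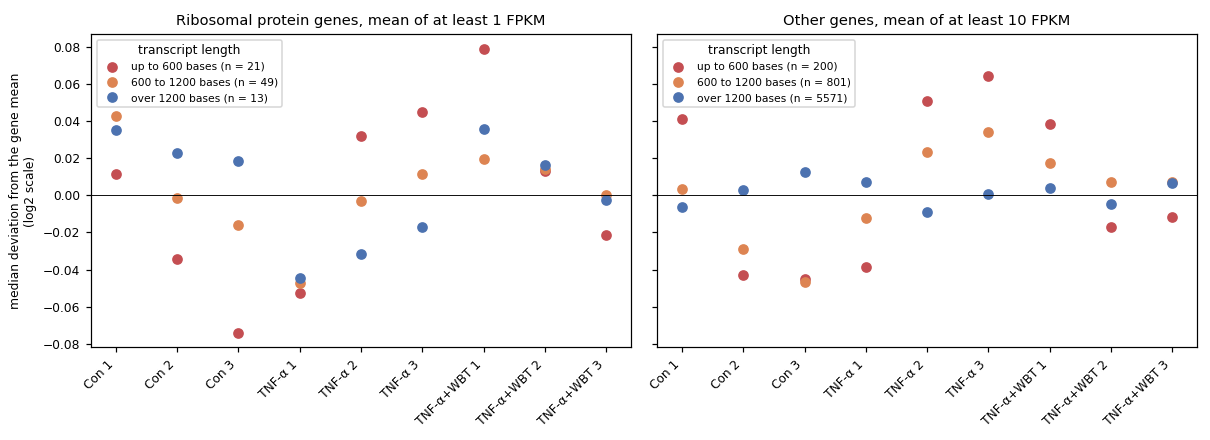
Median deviation of log2(FPKM + 0.1) from the gene mean in each library, for members (left) and other genes (right) in 3 classes of transcript length, with the number of genes in the legend. The shortest class is lowest in Con 3 among the members (−0.074) and highest in TNF-α+WBT 1 (0.079). The longest class of other genes stays near 0, while that of members runs from −0.045 in TNF-α 1 to 0.036 in TNF-α+WBT 1.

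The first comparison asks what TNF-α changed in untreated cells. Nearly all ribosomal protein genes stayed close to their Con level, and 1 passed the test. Rps19, a protein of the small subunit head that is mutated in Diamond-Blackfan anaemia, rose by 0.18 on the log2 scale (SE 0.035), a factor of 1.13. A few members were lower by similarly small amounts without passing the test, Rpl6, Rps13, Rps24, Rps7 and Rps26 among them. Genes were tested with limma on log2(FPKM + 0.1) when they lay above 0 in at least 3 libraries, in 1 model over all 9 libraries, with Benjamini-Hochberg adjustment over 25417 genes. Of the 89 members, 86 were tested and 3 (Rpl10l, Rpl39l and Rps12l1) were not.

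Rps19 (chr7:24884371-24889806) was at 611, 603 and 581 FPKM in Con, 656, 680 and 690 in TNF-α and 667, 678 and 661 in TNF-α+WBT. Every library with TNF-α lay above every Con library, and the libraries with and without WBT overlapped. The adjusted p for TNF-α against Con was 0.0262 (limma), and over all alternatives it ranged from 0.00658 to 0.192. The call was lost without Con 2, Con 3, TNF-α 2 or TNF-α 3, at adjusted p-values from 0.0649 to 0.101.

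This was 1 of 86 members called, or 1.16%, where 4.86% of all genes tested were called. At an unadjusted p under 0.05, 6 of the 86 members were higher and 12 were lower, where 8.63% of all genes tested were higher and 7.45% were lower. The rule of a fold change over 2 and an unadjusted p under 0.05, which the study used, took 0 of the 86 members and 2.42% of all genes. The median log2 fold change of the 86 members was −0.019, beside 0.0028 over all genes tested. It was −0.00067 for the 46 large subunit genes and −0.039 for the 31 small subunit genes.

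The differences could be bounded closely. Among the 83 members with a mean of at least 1 FPKM, the 95% interval of the fold change lay within 1.2-fold in either direction for 67 (80.7%) and within 1.5-fold for 79 (95.2%). Over all 12684 tested genes averaging 1 FPKM or more, these shares were 32.0% and 76.1%. This contrast was not matched in abundance, and the median SE was 0.093 over those genes against 0.044 over the members. The median SD within groups of 117 other genes averaging 300 FPKM or more was near that of the members (0.051 against 0.049). Among these 83 members, the largest estimates were those of Rpl26 at 0.43 (SE 0.165), Rps25 at 0.41 (SE 0.180) and Rps29 at 0.32 (SE 0.129) on the log2 scale, with adjusted p-values of 0.238, 0.313 and 0.264 (limma). The lowest were Rps26 at −0.21 (SE 0.063), Rpl3 at −0.18 (SE 0.068) and Rpl7 at −0.17 (SE 0.065), with adjusted p-values of 0.129, 0.228 and 0.242 (limma).

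Small differences in 1 direction were frequent all the same. In 22 of the 86 members (25.6%), all 3 TNF-α libraries lay below all 3 Con libraries, where 10.2% of all genes tested did. In 9 (10.5%) they lay above, against 11.1% of all genes. Neither share of all genes was matched in abundance. Among the 21 of the 22 with a mean of at least 1 FPKM, log2 fold changes ran from −0.21 to −0.026, with a median of −0.099. They included the stalk base Rplp0, Rpsa, which binds at the small subunit surface, Rps4x and Rps24. Rpl6, a large subunit protein, was at 892, 843 and 874 FPKM in Con and 792, 783 and 761 in TNF-α, and Rps13 was at 447, 457 and 448 and at 410, 416 and 406. Under 3 other scalings of the libraries, the count of lower members was 20 to 32 and that of higher members 4 to 10, the lowest with median centring. Of all genes, 11.1 to 12.3% were lower and 9.49 to 10.2% higher under these scalings. The members share libraries and are no replicates of a condition. Where testing was limited to genes averaging 1 FPKM or more, 9 members passed, Rps19 and Rpl10a higher and Rpl6, Rps7, Rps24, Rps13, Rpl12, Rps26 and Rpl7a lower. Without the trend, without the filter or with the 2 groups alone, 0 passed. The shares of all genes that passed under these settings are not given here, so these counts have no background beside them.

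**Figure D4:**
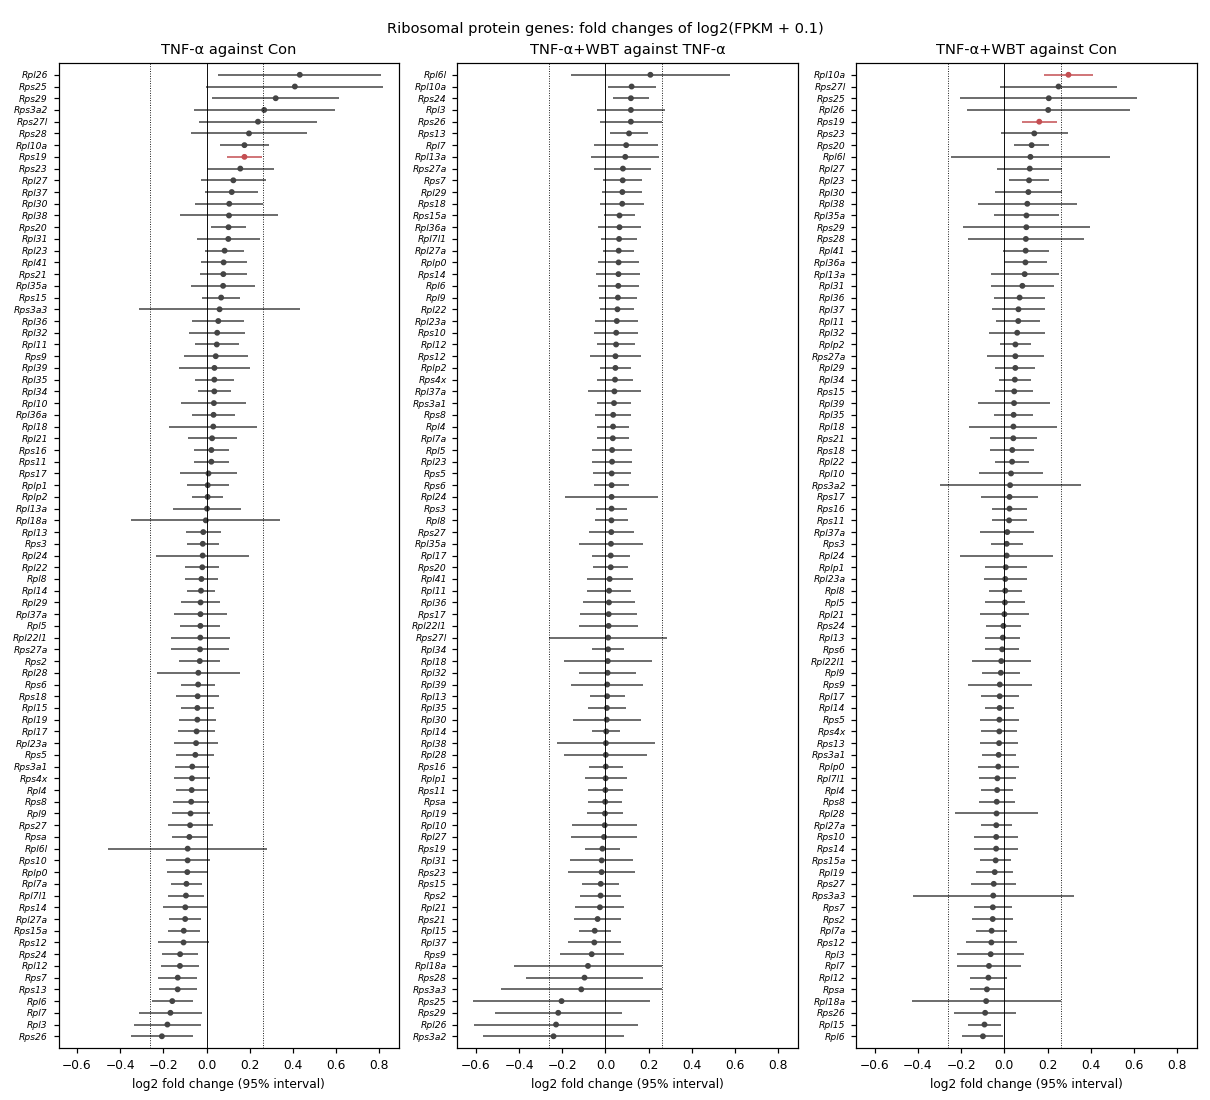
Log2 fold changes with 95% intervals from limma of the 83 members with a mean of at least 1 FPKM in the 3 comparisons, ordered within each panel, with dotted lines at 1.2-fold and red for an adjusted p below 0.05. Rps19 is red in the first panel, no gene in the second and Rpl10a and Rps19 in the third, and most intervals lie between the dotted lines.

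The second comparison asks what WBT changed in the presence of TNF-α. No member passed the test with limma (0 of 86), and 0.00393% of all genes tested did. At an unadjusted p under 0.05, 3 members were higher and 0 were lower, where 2.88% of all genes were higher and 3.43% were lower. Rps24, a small subunit protein with alternative last exons, had the smallest p, with 451, 468 and 470 FPKM in TNF-α and 492, 517 and 500 in TNF-α+WBT. Its libraries did not overlap, at a log2 fold change of 0.12 (SE 0.036) and an adjusted p of 0.645 (limma). Rps13 followed at 0.11 (SE 0.039) and Rpl10a at 0.12 (SE 0.049), with adjusted p-values of 0.711 and 0.763 (limma).

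The largest estimates with a mean of at least 1 FPKM were those of the retrocopy Rpl6l at 0.21, of Rpl10a and of Rps24, and the smallest those of Rps3a2 at −0.24, Rpl26 at −0.23 and Rps29 at −0.22. The 95% interval lay within 1.2-fold for 73 of 83 members (88.0%) and within 1.5-fold for 81 (97.6%). Over all tested genes averaging 1 FPKM or more, not matched in abundance, these shares were 42.8% and 81.9%. The median log2 fold change was 0.025, beside −0.0020 over all genes. In 12 members (13.95%) all TNF-α+WBT libraries lay above all TNF-α libraries, where 5.39% of all genes did, and in 0 they lay below, where 5.61% did. Neither share of all genes was matched in abundance. Those 12 differed by 0.028 to 0.12 on the log2 scale. Their count was 7 to 20 under the 3 other scalings, where 5.84 to 6.55% of all genes were higher. The lowest count, with quantile normalization, was 8.14% of the members beside 5.84% of all genes. The rule of the study took 0 members and 1.12% of all genes. The TNF-α libraries enter this comparison and the first one, and TNF-α 1 had the lowest share of ribosomal protein FPKM (14.54%). Without TNF-α 1 the median was 0.012 here and −0.0036 in the first comparison. Without Con 1, which had the highest share (15.25%), the median of the first comparison was −0.00048.

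The third comparison sets TNF-α+WBT against Con, and shares the libraries of both groups with the others. Rpl10a, a protein of the L1 stalk, rose by 0.30 (SE 0.049) on the log2 scale and Rps19 by 0.16 (SE 0.035), with adjusted p-values of 0.0121 and 0.0453 (limma). They were 2 of 86 members (2.33%), beside 3.71% of all genes tested. Over the alternatives the adjusted p ranged from 0.00344 to 0.0732 for Rpl10a and from 0.0127 to 0.264 for Rps19, whose call was lost without any 1 of the 9 libraries. The call of Rpl10a was lost without Con 3, TNF-α+WBT 1 or TNF-α+WBT 2, at adjusted p-values of 0.0531, 0.0518 and 0.0507. At an unadjusted p under 0.05, 4 members were higher and 3 were lower, where 7.95% of all genes were higher and 6.78% were lower. The median log2 fold change was 0.0083, beside −9.2e-05 over all genes.

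Among the 83 members with a mean of at least 1 FPKM, the largest estimates after Rpl10a were Rps27l at 0.25 (SE 0.119) and Rps25 at 0.21 (SE 0.180), and the smallest were Rpl6 at −0.10 (SE 0.041), Rpl15 at −0.092 (SE 0.033) and Rps26 at −0.089 (SE 0.063). None of these 5 passed the test, with adjusted p-values from 0.223 to 0.684 (limma). The 95% interval lay within 1.2-fold for 69 of 83 members (83.1%) and within 1.5-fold for 82 (98.8%). Over all tested genes averaging 1 FPKM or more, not matched in abundance, these shares were 33.9% and 77.2%. All TNF-α+WBT libraries lay above all Con libraries in 13 members (15.1%) and below them in 8 (9.30%), against 10.2% and 9.25% of all genes. Scaled to all other genes, 11 members were higher and 12 lower. The counts were 6 and 5 with median centring and 7 and 10 with quantile normalization, so the balance changed with the scaling. Under these 3 scalings, 9.49 to 9.67% of all genes were higher and 9.72 to 10.3% were lower. None of these shares of all genes was matched in abundance. The rule of the study took 0 members and 2.29% of all genes.

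Members with functions of their own kept to the same narrow range. Rpl5 and Rpl11, which with 5S rRNA hold MDM2 when ribosome assembly fails, were at 456 ± 13.1 and 632 ± 23.4 FPKM (SD, n = 9 libraries). Their log2 fold changes were −0.028 and 0.047 for TNF-α against Con, and 0.031 and 0.017 for TNF-α+WBT against TNF-α. Rps6 was at 1312 ± 24.1 FPKM and Rpsa at 984 ± 32.4 FPKM. Rps27a, made as a fusion with ubiquitin, was at 877 ± 43.1 FPKM. None of these 5 passed the test in any of the 3 comparisons.

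Below the gene totals, annotated transcripts were less constant. Protein-coding transcripts held 89.8% of the FPKM of the members, retained-intron transcripts 7.16%, and nonsense-mediated decay and processed transcripts 1.24% and 1.77%. Of 237 member transcripts with a mean of at least 10 FPKM, 34, in 17 members, changed their share of the gene by over 20 percentage points between libraries. A test across 80149 transcripts with the same model, chosen after the data were seen, called 5 of 465 transcripts of members for TNF-α against Con (0.635% of all transcripts were called), 0 for TNF-α+WBT against TNF-α (0.0424%) and 3 for TNF-α+WBT against Con (0.455%).

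The transcript with the smallest p was Rpl10a-205, an annotated retained-intron transcript of Rpl10a at chr17:28328647-28330695. It was at 23.8, 24.0 and 18.0 FPKM in Con, 221, 254 and 266 in TNF-α and 264, 220 and 230 in TNF-α+WBT, with a wide gap between Con and both treated groups. It rose by 3.49 (SE 0.129) on the log2 scale with TNF-α and by 3.44 (SE 0.129) with TNF-α+WBT against Con, with adjusted p-values of 3.5e-05 and 4.6e-05 (limma over transcripts). Its share of Rpl10a was 1.89 to 2.51% in Con and 18.1 to 24.1% in the other 6 libraries. The exon that begins at base 28328967 ends at 28329280 in Rpl10a-205 and at 28329047 in Rpl10a-201 and Rpl10a-207, so that 233 bases of intron are kept, and Rpl10a-205 ends without the last exon. No other annotated gene lies over it. Rpl10a as a gene was at 951, 979 and 954 FPKM in Con, 1060, 1052 and 1146 in TNF-α and 1208, 1215 and 1121 in TNF-α+WBT. Without Rpl10a-205, the rest of the gene was at 939 ± 14.2 FPKM in Con, 839 ± 40.8 in TNF-α and 943 ± 52.2 in TNF-α+WBT (SD, n = 3 each). The higher gene level thus lay on this transcript, as far as the division of fragments between transcripts can be trusted. Rpl10a-213 was at 4.68, 31.0 and 38.3 FPKM in Con and listed at 0 in the other 6 libraries.

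Rpl15-204 fell by 2.56 (SE 0.258) with TNF-α and by 2.74 (SE 0.258) with TNF-α+WBT against Con on the log2 scale, with adjusted p-values of 0.00502 and 0.00421 (limma over transcripts). It was at 54.2, 81.1 and 62.1 FPKM in Con, 11.5, 8.67 and 12.9 in TNF-α and 12.6, 6.76 and 10.4 in TNF-α+WBT. It is a protein-coding transcript that starts at base 18270626 of chromosome 14, 196 bases past the first exon of Rpl15-201, and so lacks the TOP start printed above. Rpl15 as a gene, at 403 ± 7.18, 392 ± 10.7 and 378 ± 4.88 FPKM (SD, n = 3 each), moved far less. Rpl13a-216, a nonsense-mediated decay transcript, fell by 0.78 with TNF-α (SE 0.112, adjusted p 0.0278, limma over transcripts), from 30.7 ± 3.27 to 17.8 ± 0.035 FPKM (SD, n = 3 each), and was at 32.5 ± 4.27 FPKM in TNF-α+WBT. Rps9-206, at a mean of 0.654 FPKM or less in each group, rose as well.

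Transcript shares also changed within groups. Rps26-201 held 84.1% and 85.8% of Rps26 in TNF-α 1 and TNF-α 3 and 15.4 to 22.3% in the other 7 libraries, with Rps26-202, annotated as a retained-intron transcript that starts inside the first intron, taking nearly all of the rest. The gene was at 2082 and 2029 FPKM in those 2 libraries and at 2299 to 2636 in the other 7, so the lower Rps26 level with TNF-α moved with this change of transcript, whose part in it was not tested. Rps15-202 held 89.5% and 89.3% of Rps15 in TNF-α 1 and TNF-α 2 and 52.3 to 63.5% elsewhere. Rps27a-201 held 31.5% of Rps27a in Con 1, 47.7% in TNF-α 2 and 80.7 to 83.9% in the other 7 libraries. The gene was lowest in those 2 libraries, at 807 and 808 FPKM, against 867 to 922 FPKM in the other 7. Rps24-202 held 48.0 to 62.9% of Rps24 in all libraries.

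**Figure D5:**
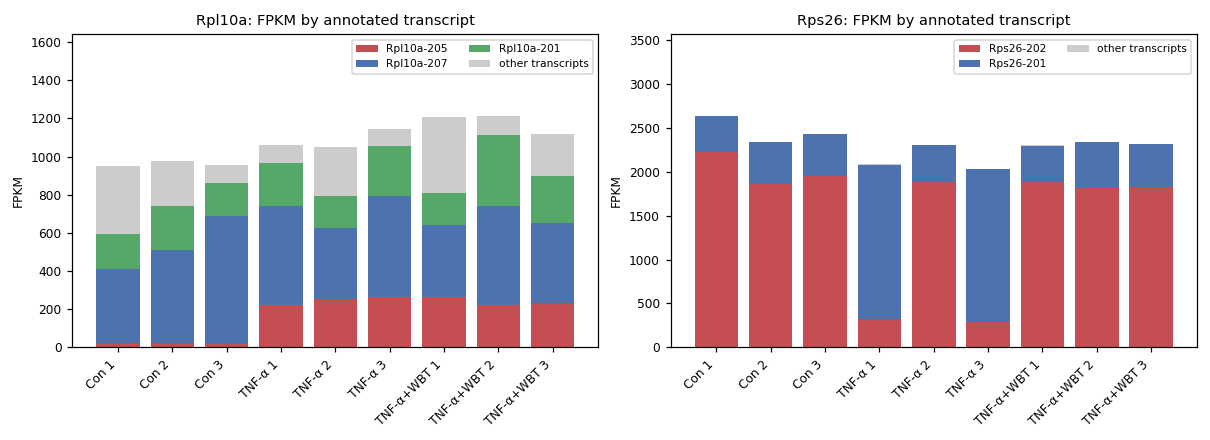
FPKM of Rpl10a (left) and Rps26 (right) in each library, stacked by annotated transcript. Rpl10a-205 is at 18.0 to 24.0 FPKM in Con and at 220 to 266 in the other 6 libraries, and Rps26-201 and Rps26-202 trade places in TNF-α 1 and TNF-α 3.

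Few other genes of translation passed the test, though the elongation and biogenesis lists had lower medians with TNF-α than the ribosomal protein genes. Of 21 elongation factor and other TOP genes, 1 fell with TNF-α, Eif4b, a cofactor of the helicase eIF4A, from 356 ± 1.02 to 324 ± 7.30 FPKM (SD, n = 3 each), by 0.14 on the log2 scale (SE 0.029, adjusted p 0.0359, limma). Eef2, at 2788 FPKM the elongation factor of translocation, was at −0.12, and the median of the list was −0.085, beside 0.0028 over all genes. At an unadjusted p under 0.05, 0 of these 21 genes were higher and 9 were lower, beside the 8.63% and 7.45% of all genes given above, which also stand beside the next lists. Of 30 ribosome biogenesis genes 0 passed with limma, with 2 higher and 12 lower at an unadjusted p under 0.05 and a median of −0.10. Of 16 genes that control ribosomal protein synthesis, Mtor, Myc and Larp1 among them, 0 passed with limma, with 1 higher and 4 lower unadjusted and a median of −0.012. Of 78 mitochondrial ribosomal protein genes 1 rose, Mrpl38, from 37.5 ± 3.11 to 46.1 ± 2.26 FPKM (SD, n = 3 each), by 0.30 on the log2 scale (SE 0.067, adjusted p 0.0398, limma), with 4 higher and 4 lower unadjusted and a median of −0.017. In both other comparisons 0 genes of these 4 lists passed with limma, and the medians lay between −0.096 and 0.052. At an unadjusted p under 0.05, 3 were higher and 2 lower for TNF-α+WBT against TNF-α, where 2.88% and 3.43% of all genes were. For TNF-α+WBT against Con, 6 were higher and 22 lower, where 7.95% and 6.78% of all genes were. The 22 were 10 of 30 biogenesis genes, 8 of 78 mitochondrial genes, 3 of 21 elongation and TOP genes and 1 of 16 control genes.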

How the data were processed

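Poly(A) RNA of 9 libraries was sequenced by the authors as read pairs, aligned with HISAT2 and assembled and quantified with StringTie. The deposited values are FPKM per gene and per transcript, scaled by the authors for length and depth. Tool versions, the genome build and the use of strand are not given in the sources used here. Gene symbols and positions came from GENCODE M21 (GRCm38), which matched 55144 of 56289 gene identifiers, and 0 columns were without a sample. Members, lists and tests were chosen with earlier results of these data known. The test used log2(FPKM + 0.1) of every gene with a value over 0 in 3 or more libraries, so that fold changes of low genes are understated. It was run with limma 3.58.1 in R 4.3.3 (eBayes with a trend, all 9 libraries in 1 model), and Benjamini-Hochberg adjustment over all genes. The script was tested on simulated data. Nothing in the labels says whether libraries of a group came from separate experiments, so p-values measure the spread between these libraries. Copies were found with BLAST 2.17.0 (at least 100 aligned bases). Genes were named by a rule: the 5 highest and 5 lowest, paralogs with partners, called genes, the 3 largest and 3 smallest fold changes per comparison, the 3 most variable, and members with functions of their own. Other names were chosen after values were seen. Alternatives changed the pseudocount, filter, trend, scaling, groups fitted, block and libraries. The transcript fit, the added copies and the removed length trend were chosen after seeing the data.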

Additional observations from a re-analysis of the deposited data

How the results depend on the processing

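The counts of called ribosomal protein genes were small and moved with most settings. For TNF-α against Con, where 1 gene was called, 9 were called among genes averaging at least 1 FPKM, 3 after quantile normalization and 2 with the trend on transcript length removed, while 0 were called with no filter, no trend, only the groups compared or the copies by sequence added. Leaving out 1 library at a time gave 0 to 2. For TNF-α+WBT against Con, where 2 were called, the count was 0 with no filter, no trend or quantile normalization, and 1 with only the groups compared, median centring, named pseudogenes added, copies added or the length trend removed, and leaving out 1 library gave 0 to 2. For TNF-α+WBT against TNF-α the count was 0 under all 23 alternatives. The cause of these changes was not tested. The share of all genes called under each alternative is not given here, so these counts cannot be read as particular to the members. The share of all FPKM was 15.78% in Con, 15.49% in TNF-α and 15.79% in TNF-α+WBT with named pseudogenes added, and 17.13%, 16.82% and 17.11% with the copies by sequence added. The log2 fold change of Rps19 for TNF-α+WBT against TNF-α, −0.014, changed sign to 0.0013 without TNF-α 3, and leaving out 1 library gave −0.035 to 0.0013.

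With the replicate number as a block, 0 members were called in each of the 3 comparisons. Same-numbered libraries of different groups correlated at −0.067 to 0.095 in their deviations from the group means, with 0 of 9 pairs over 0.1. They correlated best with their own number in 6 of 18 cases. With 3 libraries a group, these correlations cannot show whether same-numbered libraries were handled together, which the labels do not say. Estimated fragments per library were 41 to 92 for the low copies Rps3a2, Rps3a3 and Rpl6l, with counting errors of up to 15.6%.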
